A study of Mus musculus castaneus and Mus musculus domesticus and Mus musculus with 11 samples.

Results

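The gene set described here is the cholesterol pathway, from the mevalonate enzymes through lanosterol to cholesterol, together with the sterol sensors that control it and proteins that move sterol inside and out of cells. Of 28 listed genes, 24 had a row in the read matrix among 27071 genes, and all 24 passed the filter on low counts, as did 14839 genes in all. Acat2, Hmgcs1, Tm7sf2 and Insig1 were not analysed here. Members were found by joining Ensembl IDs to gene symbols. The samples were motor neurons differentiated from mouse stem cell lines. The hybrid was a CASTx129 cross, labelled 129CAS, with 3 libraries. Its parental lines were CAST/EiJ (CAST below), which is wild-derived, with 3 libraries, and the laboratory strain 129S6/SvEv (129 below), with 3 libraries. No treatment or engineered allele is named in the labels, and the labels do not say whether a line is 1 clone or whether its libraries came from separate cultures. P-values therefore set differences between lines against the spread of these libraries only. They need not hold for other clones or cultures of the strains. The stated aim of the sequencing was to assess the transcriptional identity of the lines.

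Cells build cholesterol from acetyl-CoA through mevalonate and farnesyl pyrophosphate. Farnesyl pyrophosphate is also the starting point for lipid anchors of proteins such as the Ras family GTPases, for dolichol and for ubiquinone. When sterol in the endoplasmic reticulum is low, Scap escorts the SREBP transcription factors to the Golgi, where they are cut and released to switch on most genes of the pathway. In the nervous system cholesterol is made locally, since plasma lipoproteins do not cross the blood-brain barrier, and neurons also take it up from glia through lipoprotein receptors and lysosomes.

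Total counts were 14502335, 7763077 and 12362162 in hybrid libraries 1 to 3, 11167254, 16374911 and 13555712 in CAST libraries 1 to 3, and 18167577, 16763198 and 17179629 in 129 libraries 1 to 3. Hybrid 2 and CAST 1 stood apart from the other libraries by transcript length. Over 14830 genes, relative log2 expression changed by −0.72 per doubling of transcript length in hybrid 2 and by −0.64 in CAST 1. The change was 0.09 in hybrid 1, −0.28 in hybrid 3, 0.19 in CAST 2 and 0.32 in CAST 3. In 129 libraries 1 to 3 it was 0.32, 0.35 and 0.38, so every hybrid library lay below every 129 library. Levels are CPM, each library's reads of a gene scaled to a common library size with TMM factors, or RPKM, which is CPM per kilobase of the principal transcript, where genes are compared with each other. The motor neuron markers searched (8 genes, among them Mnx1, Isl1, Chat and Prph) had counts in every line. Their summed level was 448 to 1363 CPM in the hybrid, 566 to 3230 in CAST and 359 to 1420 in 129. Most of each sum was Prph, at 317 to 1230 CPM in the hybrid, 448 to 2996 in CAST and 240 to 971 in 129. Mnx1 was low, at 0.50 to 2.51 CPM in the hybrid, 1.80 to 3.41 in CAST and 0.78 to 4.88 in 129. Lhx3 was lower still, at 0 to 0.70, 0.11 to 0.62 and 0.22 to 2.13 CPM in the same order. Chat had 6.36 to 11.04 CPM in the hybrid, 5.52 to 11.87 in CAST and 5.84 to 28.44 in 129. Other cells were also present: fibroblast and mesenchyme markers (8 genes) summed to 1010 to 19163 CPM in the hybrid, 825 to 4268 in CAST and 3777 to 18147 in 129. None of the 8 motor neuron markers was called between lines by edgeR; 1 had an unadjusted p under 0.05, in hybrid against 129, and DESeq2 called that contrast for Slc5a7. Of the 8 fibroblast markers 0 were called by edgeR; 3 had an unadjusted p under 0.05 in hybrid against CAST, 3 in CAST against 129 and 0 in hybrid against 129, and DESeq2 called 3, 3 and 0 in the same order.

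Sterol genes were expressed throughout. Apart from Fdps and Ggps1, the 22 members with counts in every library had mean levels of 3.47 to 88.8 RPKM in the hybrid (median 24.1), 3.67 to 80.8 in CAST (median 32.6) and 9.69 to 61.6 in 129 (median 18.3). Stard4, a cytosolic sterol carrier, was the lowest and Npc2, which hands sterol over in the lysosome, the highest in each line. Summed over these 22 genes, the level was 1701 to 1821 CPM in the hybrid, 2057 to 2571 CPM in CAST and 1785 to 1916 CPM in 129.

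**Figure D1:**
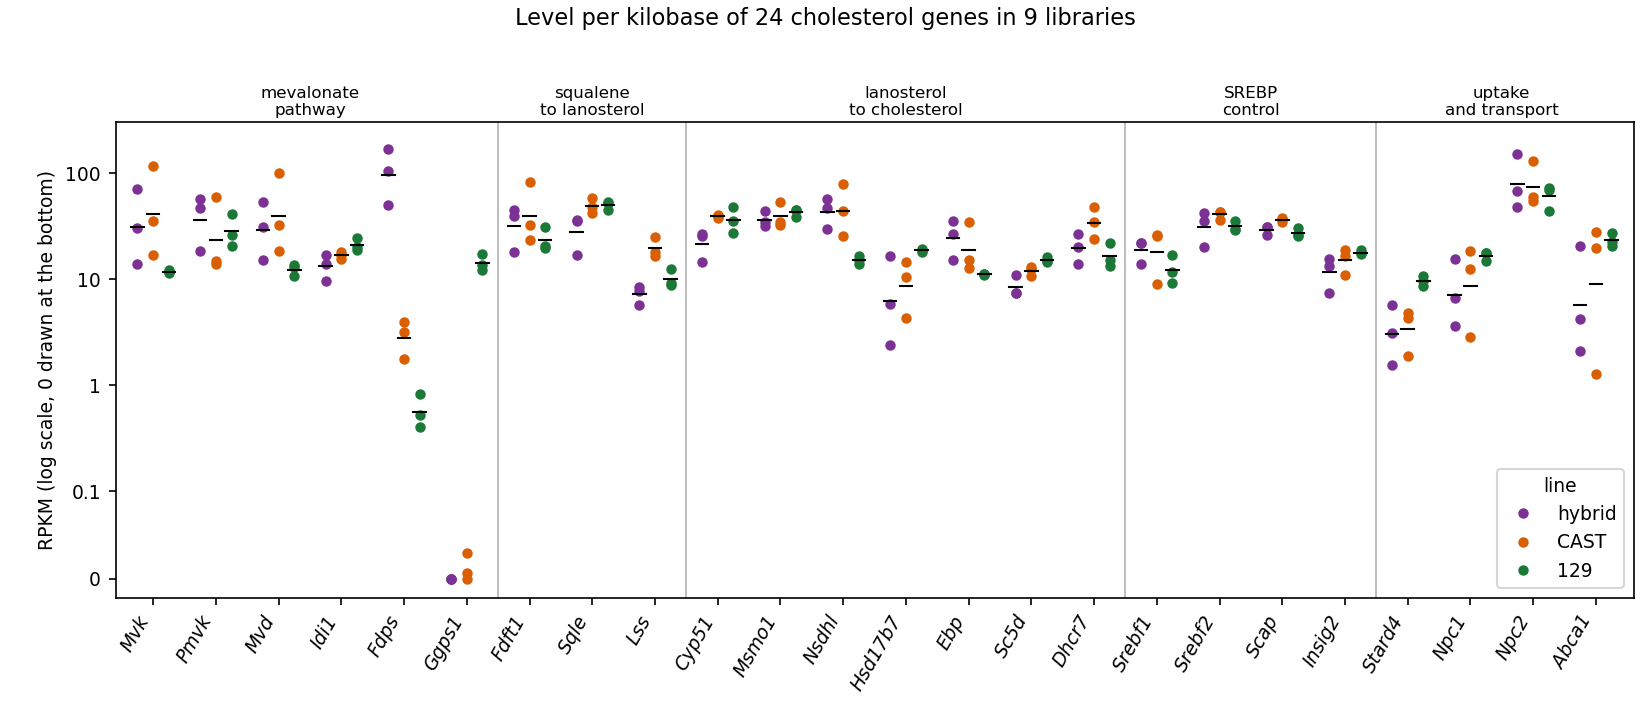
Level of each of the 24 members in RPKM on a log scale, with 1 point per library, coloured by line in the order hybrid, CAST and 129, and a black bar at the geometric mean where no library is at 0. Members run from left to right by step of the pathway. Fdps is high only in the hybrid libraries, and Ggps1 is high only in the 129 libraries.

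In edgeR, 3 members passed the threshold in any comparison of lines. Fdps and Ggps1, which follow one another at the farnesyl branch point, differed by more than 10-fold between lines, in opposite directions, and Lss differed between the hybrid and CAST. Calls are from the quasi-likelihood test of edgeR with Benjamini-Hochberg adjustment over 14839 genes and a threshold of 0.05. In hybrid against 129, 2 of 24 members were called, or 8.33%, beside 7.02% of all genes tested. Of these, 1 was higher, beside 5.41% of all genes, and 1 lower, beside 1.6%. In hybrid against CAST, 2 of 24 were called, beside 6% of all genes. Here too 1 was higher, beside 4.41%, and 1 lower, beside 1.6%. In CAST against 129, 1 of 24 was called, or 4.17%, beside 0.917% of all genes, and it was lower, beside 0.526%. The midparent is the average of CAST and 129 in log2 units. In hybrid against the midparent, 2 of 24 were called, beside 7.34% of all genes, 1 higher, beside 5.88%, and 1 lower, beside 1.46%. A joint test of any difference among the lines called 2 of 24, beside 8.03% of all genes. At an unadjusted p under 0.05, the members were 7 of 24 in hybrid against 129 (22.2% of all genes), 2 in hybrid against CAST (15.8%), 8 in CAST against 129 (14.6%), 6 against the midparent (18.4%) and 8 in the joint test (21.1%). The share of members called was near the background in the contrasts with the hybrid and rested on 1 gene in CAST against 129. DESeq2 called Nsdhl, Sc5d and Stard4 besides Fdps and Ggps1 in hybrid against 129, and Fdps, Mvk, Mvd and Nsdhl besides Ggps1 in CAST against 129, or 5 in each.

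Fdps encodes farnesyl pyrophosphate synthase, which joins isoprene units into farnesyl pyrophosphate. The gene (ENSMUSG00000059743) lies on the minus strand of chr3:89093588-89101959 in GRCm38. Its counts were 977, 1670 and 2063 in hybrid libraries 1 to 3, 53, 78 and 34 in CAST libraries 1 to 3, and 10, 12 and 20 in 129 libraries 1 to 3. In CPM it had 69.1, 233 and 144 in the hybrid, 5.47, 4.38 and 2.44 in CAST, and 0.56, 0.73 and 1.15 in 129. No library of one line overlapped a library of another. The lowest hybrid library was 12.6 times the highest CAST library and 60.2 times the highest 129 library.

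Mean levels of Fdps were 149 ± 82.2 CPM in the hybrid, 4.10 ± 1.54 CPM in CAST and 0.81 ± 0.31 CPM in 129 (SD, n = 3 each). By edgeR, Fdps was higher in the hybrid than in 129 by 7.50 on the log2 scale (SE 0.67, adjusted p = 0.000384). It was higher in the hybrid than in CAST by 5.18 (SE 0.60, adjusted p = 0.00118) and higher than the midparent by 6.34 (SE 0.47, adjusted p = 6.64e-05). The hybrid was thus outside the range of both its parents. CAST exceeded 129 by 2.32 (SE 0.55), which did not pass in edgeR (adjusted p = 0.0982) and did in DESeq2 (adjusted p = 0.00476).

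Ggps1 encodes geranylgeranyl pyrophosphate synthase, which adds a further isoprene unit to farnesyl pyrophosphate and feeds the lipid anchors of Rab proteins rather than sterol. The gene (ENSMUSG00000021302) lies on the minus strand of chr13:14050659-14063488. It had 0, 0 and 0 counts in hybrid libraries 1 to 3, 0, 2 and 1 counts in CAST libraries 1 to 3, and 936, 939 and 1276 counts in 129 libraries 1 to 3. Only 129 had it at a level well above the limit of detection, at 60.9 ± 11.1 CPM (SD, n = 3).

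With the floor for a count of 0 set at 3 counts over the 3 libraries, Ggps1 was at least 722-fold lower in the hybrid than in 129 (edgeR, adjusted p = 0.000305). In CAST, the ratio of summed levels was 841-fold lower than in 129, with a 95% counting interval of 287 to 4078 (adjusted p = 0.0029). The hybrid and CAST were both at or under the floor, so no fold is given between them. The mean of the parental line means was 30.5 CPM. The midparent of the test is not that value but an average of log2 levels, and its CAST part rests on 3 counts, at the floor. The hybrid was below this midparent by edgeR (adjusted p = 0.00249). The hybrid, which has 129 as a parent, thus matched CAST and not 129 in having next to no reads of the gene.

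**Figure D2:**
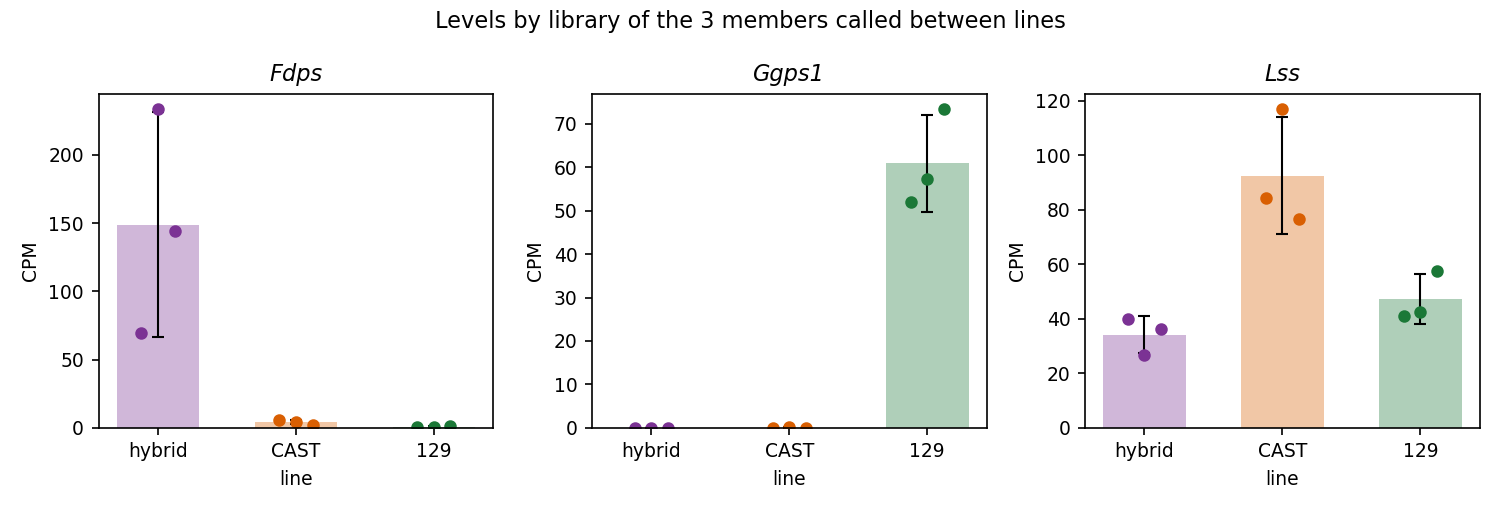
CPM of Fdps, Ggps1 and Lss by line in the order hybrid, CAST and 129, on linear axes that start at 0. Bars are means, error bars are SD (n = 3) and points are libraries. Fdps reaches 69.1 to 233 CPM in the hybrid alone, Ggps1 52.0 to 73.3 CPM in 129 alone, and Lss is highest in the 3 CAST libraries.

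Both genes share sequence with other places in the genome, and reads of all lines were aligned to mm10, the C57BL/6J reference, per the submitters' processing notes. In the GENCODE annotation, 4 processed pseudogenes elsewhere in the genome matched Fdps transcripts at 96.1 to 98.9% identity over 605 to 1066 bases. A single processed pseudogene matched Ggps1 at 97.2% identity over 903 bases. Fdft1 had 1 such copy and Idi1 had 2, at 97.4 to 100% identity. None of these pseudogenes had a row used here. The sources used here do not say how reads that match several places were counted, so the levels of these 4 members are uncertain, and the part of the copies in the differences between lines was not tested.

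Overlapping genes add a further uncertainty. Fdps shared 26.7% of its exonic bases with Gm43738 on the same strand, which had 0, 3 and 0 counts in the hybrid and 0 counts in every CAST and 129 library. That share is of 4208 bases over all annotated Fdps exons, while its RPKM used the 1382 bases of the principal transcript. Transcripts of Fdps and Gm43738 matched at 100% identity over 929 bases, and reads from there cannot be told apart by strand. Ggps1 shared 5.44% with Arid4b on the other strand, which had 1662, 263 and 841 counts in the hybrid, 258, 1625 and 1148 in CAST, and 1563, 1606 and 1764 in 129, a pattern unlike that of Ggps1. Among the other tested members, Fdft1 (18.3%) and Scap (13.2%) also overlapped another gene by at least 10% of their exonic bases. Idi1 (9.22%), Npc1 (5.31%), Cyp51 (3.76%), Lss (3.53%) and Srebf1 (3.11%) overlapped one by less, and 15 members did not overlap any. Extreme contrasts of these kinds were not limited to the pathway. Of 9964 genes that averaged at least 10 CPM in 129, 39 had 0 counts in all hybrid libraries, and 6 of those also had at most 3 counts over the CAST libraries. In 184 tested genes with a mean of at least 10 CPM in the hybrid, every hybrid library was at least 10 times every CAST and every 129 library.

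The other mevalonate enzymes did not pass in any comparison by edgeR. Mvk, which phosphorylates mevalonate, had the highest mean per length over the 9 libraries, 35.3 RPKM, but not in every line: Pmvk was above it in the hybrid (40.5 against 38.1 RPKM) and in 129 (29.5 against 11.8 RPKM). Mvk had 23.1, 116 and 50.3 CPM in hybrid libraries 1 to 3, 192, 58.6 and 28.2 in CAST libraries 1 to 3, and 20.3, 19.5 and 19.0 in 129 libraries 1 to 3. Every hybrid and CAST library lay above every 129 library, and the highest in each line were hybrid 2 and CAST 1. Its difference was 1.69 in hybrid against 129 (SE 0.75, adjusted p = 0.223) and 2.24 in CAST against 129 (SE 0.76, adjusted p = 0.223), and DESeq2 called the second (adjusted p = 0.0491). With CAST 1 and hybrid 2 left out, the value was 0.92 in hybrid against 129 and 1.10 in CAST against 129.

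Mvd, which decarboxylates the pyrophosphate of mevalonate, followed the same order, at 26.4 to 93.9 CPM in the hybrid, 32.5 to 174 in CAST and 18.7 to 23.7 in 129. Its difference in CAST against 129 was 2.01 (SE 0.66, adjusted p = 0.212 in edgeR, 0.0498 in DESeq2), and 0.998 without CAST 1 and hybrid 2. Pmvk, the kinase between Mvk and Mvd, overlapped among all lines, at 22 to 67.5 CPM in the hybrid, 16.7 to 71.6 in CAST and 24.6 to 49.5 in 129. Idi1, which isomerises isopentenyl pyrophosphate, had 29.2 to 51.1 CPM in the hybrid, 46.6 to 54.9 in CAST and 57.2 to 74.1 in 129, a difference of −0.65 in hybrid against 129 (SE 0.32, adjusted p = 0.258).

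The steps from squalene to lanosterol commit the pathway to sterol. Lss encodes lanosterol synthase, which folds epoxidised squalene into the first sterol, and lies on the plus strand of chr10:76531588-76557138 (ENSMUSG00000033105). It had 39.8, 26.5 and 36.3 CPM in hybrid libraries 1 to 3, 84.3, 117 and 76.5 in CAST libraries 1 to 3, and 41.1, 42.6 and 57.7 in 129 libraries 1 to 3. All CAST libraries lay above all hybrid and all 129 libraries, and all hybrid libraries lay below all 129 libraries. Means were 34.2 ± 6.85 CPM in the hybrid, 92.5 ± 21.4 CPM in CAST and 47.1 ± 9.15 CPM in 129 (SD, n = 3 each).

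Lss was lower in the hybrid than in CAST by edgeR (log2 fold change −1.44, SE 0.33, adjusted p = 0.0326). The call was near the threshold: leaving out any single library other than CAST 1 ended it (adjusted p 0.0541 to 0.130), as did a fit of these 2 lines alone (0.131) and the absence of a filter on low counts (0.0594), with log2 fold changes from −1.56 to −1.24. In CAST against 129 the difference was 0.97 (SE 0.33, adjusted p = 0.223) and in hybrid against 129 −0.46 (SE 0.33, adjusted p = 0.402). Against the midparent it was −0.95 (SE 0.30, adjusted p = 0.102 in edgeR, 0.0103 in DESeq2). Lss shared 3.53% of its exonic bases with an antisense gene.

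Sqle, the squalene epoxidase that is a slow step of the pathway, had the highest mean per length of this group over the 9 libraries, 43.0 RPKM, while Fdft1 was above it in the hybrid (34.2 against 29.6 RPKM). Sqle had 97.9, 46.8 and 100 CPM in hybrid libraries 1 to 3, 115, 159 and 132 in CAST libraries 1 to 3, and 147, 124 and 146 in 129 libraries 1 to 3. The hybrid libraries lay below all parental libraries, hybrid 2 the furthest. The difference was −0.77 in hybrid against 129 (SE 0.37, adjusted p = 0.254) and −0.73 in hybrid against CAST (SE 0.37, adjusted p = 0.406), neither of which passed, and −0.47 and −0.51 without CAST 1 and hybrid 2. Fdft1, the squalene synthase that competes with Ggps1 for farnesyl pyrophosphate, overlapped among lines at 67.3 to 166 CPM in the hybrid, 85.9 to 302 in CAST and 72.7 to 114 in 129. It shared 18.3% of its exonic bases with Ctsb on the other strand, an abundant gene with 4594 to 8399 counts in the hybrid, 6703 to 9707 in CAST and 10024 to 13336 in 129. Reads of these genes can be told apart there only by strand, and the sources used here do not give the strand setting of the counting.

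Of the 7 enzymes tested from lanosterol to cholesterol, none was called by edgeR in any comparison. An unadjusted p under 0.05 was found for 3 of the 7 in hybrid against 129, 0 in hybrid against CAST, 2 in CAST against 129 and 2 against the midparent, beside the 22.2%, 15.8%, 14.6% and 18.4% of all genes. Msmo1, the oxidase that removes methyl groups of the sterol ring, had the highest mean per length over the 9 libraries, 40.0 RPKM, and led in 129, while Nsdhl was above it in the hybrid (44.5 against 36.8 RPKM) and in CAST (49.3 against 40.4 RPKM). Msmo1 had 64.7, 71.4 and 89.8 CPM in hybrid libraries 1 to 3, 110, 66.7 and 70.6 in CAST libraries 1 to 3, and 90.9, 78.2 and 92.4 in 129 libraries 1 to 3. The lines overlapped, with differences of −0.21 in hybrid against 129 and −0.13 in hybrid against CAST (SE 0.33 each, adjusted p = 0.691 and 0.921).

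Nsdhl, the dehydrogenase that acts with Msmo1 in demethylation, had the largest difference of this group. It had 64.1, 124 and 101 CPM in hybrid libraries 1 to 3, 171, 94.6 and 54.8 in CAST libraries 1 to 3, and 32.6, 30.2 and 35.5 in 129 libraries 1 to 3. Every hybrid and every CAST library was above every 129 library. In hybrid against 129 the difference was 1.56 (SE 0.45, adjusted p = 0.0811 in edgeR, 0.0127 in DESeq2). EdgeR called it with CAST 1 left out (adjusted p = 0.0235), with CAST 1 and hybrid 2 left out (1.35, adjusted p = 0.034), and in a fit of the 2 lines alone (0.0342). Of the 17 alternatives run for this contrast, DESeq2 among them, only 4 called it. In CAST against 129 the difference was 1.70 (SE 0.46, adjusted p = 0.133 in edgeR, 0.0142 in DESeq2). The gene was singled out after its values were seen.

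The sterol isomerase gene Ebp lies on chromosome X, as does Nsdhl. Ebp was also above all 129 libraries in every hybrid and CAST library, at 26.3 to 62.0 CPM in the hybrid, 22.4 to 60.9 in CAST and 19.3 to 19.5 in 129. Its difference in hybrid against 129 was 1.21 (SE 0.46, adjusted p = 0.172), and of the alternatives run 1 called it, without CAST 1 (adjusted p = 0.0498). The lowest value over the alternatives, 0.70, came with an offset for each library's length trend (edgeR, adjusted p = 0.19). Dhcr7, the reductase that makes cholesterol in the last step, had 39.5 to 74.6 CPM in the hybrid, 67.7 to 136 in CAST and 37.4 to 61.6 in 129, with a difference of 1.08 in CAST against 129 (SE 0.40, adjusted p = 0.254). Short stretches of Dhcr7 and Msmo1 transcripts, 200 to 227 bases, also matched genes elsewhere at 95% identity or more.

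Cyp51, the demethylase of lanosterol, had 57.0 to 105 CPM in the hybrid, below all libraries of CAST (147 to 159) and of 129 (108 to 189), with adjusted p = 0.333 against CAST and 0.272 against 129. Sc5d, a desaturase of the sterol ring, had 35.1 to 52.2 CPM in the hybrid, 50.9 to 62.3 in CAST and 69.4 to 76.9 in 129. Its difference in hybrid against 129 was −0.82 (SE 0.30, adjusted p = 0.158 in edgeR, 0.0318 in DESeq2). Hsd17b7, the reductase that acts beside Nsdhl, had 76.8, 11.2 and 26.8 CPM in hybrid libraries 1 to 3, 20.0, 48.0 and 66.6 in CAST libraries 1 to 3, and 85.6, 89.5 and 83.7 in 129 libraries 1 to 3. Hybrid 2 and CAST 1 were the lowest of their lines, and the difference in hybrid against 129 was −1.17 (SE 0.66, adjusted p = 0.314), or −0.72 without CAST 1 and hybrid 2. Nsdhl and Hsd17b7, which encode successive enzymes, were thus placed on opposite sides of 129 in both other lines, with no call by edgeR for either. Their principal transcripts differ in length, at 2168 and 4612 bases. With an offset for each library's length trend, the values in CAST against 129 were 1.49 and −0.77 (edgeR, adjusted p = 0.064 and 0.446). Over all alternatives, the values in hybrid against 129 ran from 1.28 to 1.74 for Nsdhl and from −2.19 to −0.72 for Hsd17b7.

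**Figure D3:**
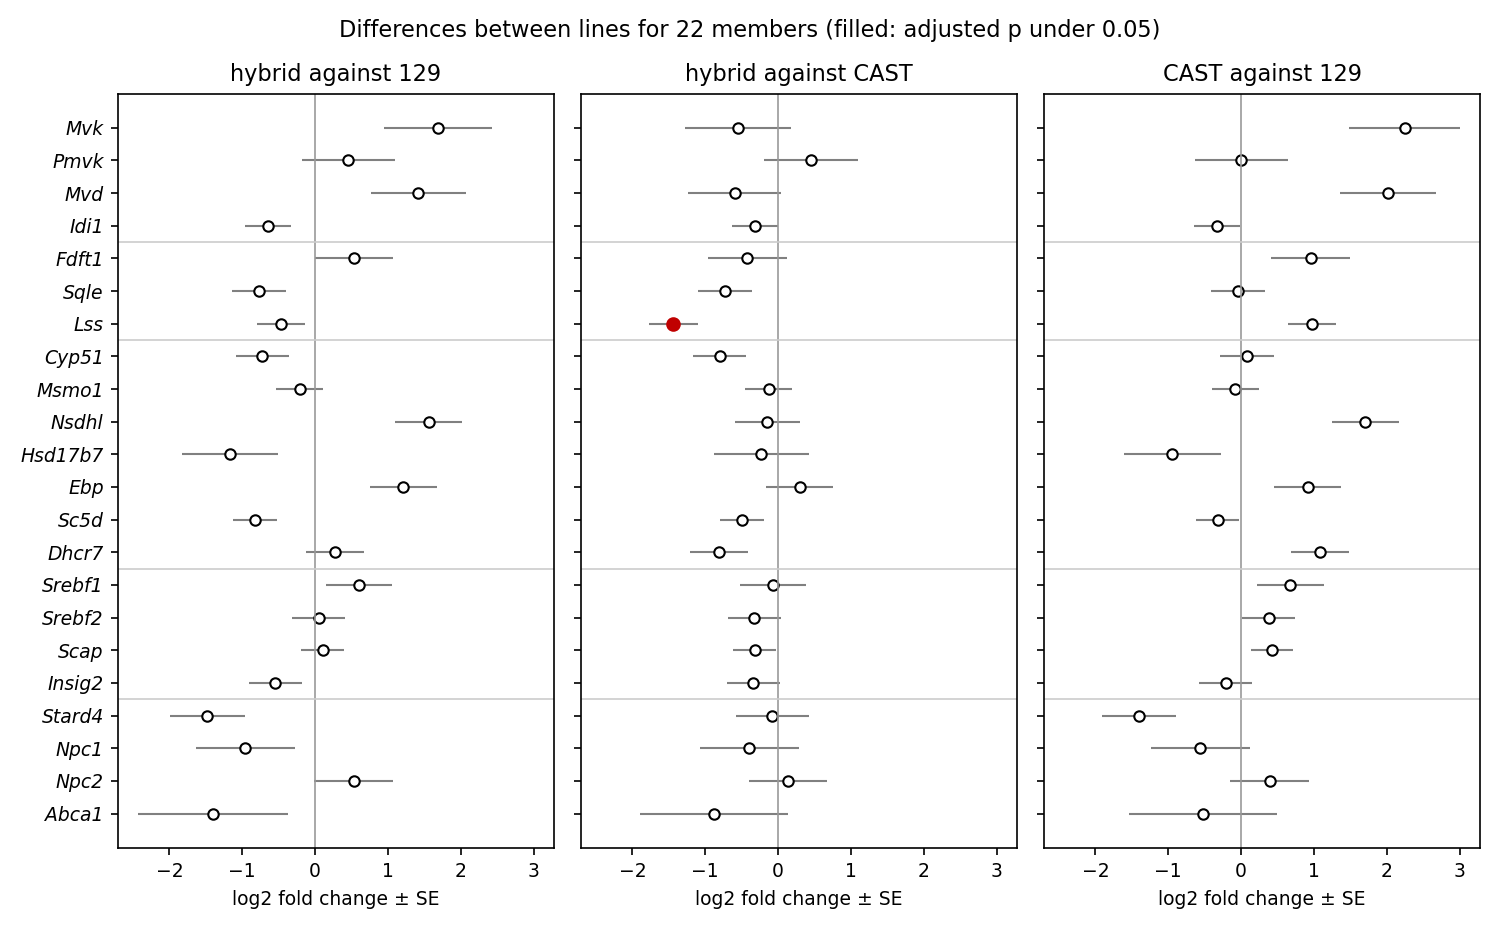
Log2 fold change with its SE for 22 members, without Fdps and Ggps1, in hybrid against 129, hybrid against CAST, and CAST against 129, ordered by pathway step with a line at 0. Filled points passed an adjusted p of 0.05 in edgeR. Lss in hybrid against CAST, at −1.44, is the single filled point.

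None of the control genes was called. Srebf2 encodes the SREBP that drives sterol synthesis. It had 180, 101 and 215 CPM in hybrid libraries 1 to 3, 184, 220 and 219 in CAST libraries 1 to 3, and 151, 149 and 179 in 129 libraries 1 to 3. Its differences were 0.05 in hybrid against 129, −0.33 in hybrid against CAST and 0.38 in CAST against 129 (SE 0.36 each, adjusted p = 0.939, 0.793 and 0.603). Srebf1, the factor of fatty acid synthesis, had 60.2 to 94.2 CPM in the hybrid, 39.1 to 112 in CAST and 39.9 to 72.8 in 129. Scap had 110 to 130 CPM in the hybrid, 147 to 158 in CAST and 107 to 128 in 129, and shared 13.2% of its exonic bases with a gene on the other strand. Insig2, which holds Scap in the endoplasmic reticulum, had 20.1 to 42.2 CPM in the hybrid, 29.4 to 50.2 in CAST and 46.2 to 50.7 in 129. Of these 4 genes, 0 were called by edgeR and 0 had an unadjusted p under 0.05 in hybrid against 129, hybrid against CAST, CAST against 129 or hybrid against the midparent, and DESeq2 called 0.

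The genes of sterol trafficking varied widely among libraries of 1 line. Npc2 had 224, 496 and 160 CPM in hybrid libraries 1 to 3, 425, 179 and 196 in CAST libraries 1 to 3, and 228, 238 and 144 in 129 libraries 1 to 3, with hybrid 2 and CAST 1 the highest of their lines. Npc1, its partner in the lysosomal membrane, showed the reverse: 81.4, 18.7 and 34.4 CPM in hybrid libraries 1 to 3, 14.9, 65.1 and 97.1 in CAST libraries 1 to 3, and 92.4, 91.5 and 77.4 in 129 libraries 1 to 3. Abca1, which exports cholesterol to lipoproteins, had 210, 21.7 and 42.9 CPM in hybrid libraries 1 to 3, 13.0, 204 and 289 in CAST libraries 1 to 3, and 280, 212 and 231 in 129 libraries 1 to 3. Hybrid 2 and CAST 1 were again the lowest of their lines for both genes.

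Stard4 had 7.96 to 29.1 CPM in the hybrid, 9.70 to 24.4 in CAST and 44.1 to 54.5 in 129, so that every 129 library lay above all others. Its difference was −1.48 in hybrid against 129 (SE 0.51, adjusted p = 0.135 in edgeR, 0.0416 in DESeq2) and −1.40 in CAST against 129 (SE 0.51, adjusted p = 0.253). None of the 4 trafficking genes was called by edgeR, and 1 had an unadjusted p under 0.05 in hybrid against 129 as in CAST against 129.

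Across all 24 members, separation between libraries was more frequent than calls. Libraries of hybrid and 129 did not overlap for 15 members, 5 higher and 10 lower in the hybrid (62.5%, beside 37.5% of all genes tested). The 5 higher members had principal transcripts of 1382 to 2168 bases, and the 10 lower ones of 2697 to 10262 bases. The length trend was also lower in every hybrid library than in every 129 library. The part of transcript length in this separation was not tested. Libraries of hybrid and CAST did not overlap for 5 members, 1 higher and 4 lower in the hybrid (20.8%, beside 19.2%). Libraries of CAST and 129 did not overlap for 14 members, 9 higher and 5 lower in CAST (58.3%, beside 28.6%). The median log2 fold change over members was −0.08 in hybrid against 129 (0.02 over all genes), −0.33 in hybrid against CAST (−0.08 over all genes), and 0.23 in CAST against 129 (0.06 over all genes). Against the midparent it was −0.22 (−0.02 over all genes). These medians moved with single members and libraries. Without CAST 1 the median in CAST against 129 was 0.07. Without CAST 1 and hybrid 2 it was −0.12 in hybrid against 129, −0.15 in hybrid against CAST, 0.06 in CAST against 129 and −0.10 against the midparent. Without Fdps, Fdft1 and Scap, which overlap another gene by at least 10%, they were −0.46 in hybrid against 129, −0.44 against the midparent and 0.0049 in CAST against 129. Without hybrid 3 they were −0.28 in hybrid against 129 and −0.44 against the midparent.

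Levels in hybrid 2 and CAST 1 varied with transcript length. For each member except Ggps1, the level in hybrid 2 and in CAST 1 was set against the mean log2 level of the other 2 libraries of the same line. In hybrid 2 the values ran from −2.13 for Abca1 to 1.77 for Mvk, and across the 23 members their correlation with log2 length was r = −0.77 (Spearman's rank coefficient −0.72). In CAST 1 they ran from −4.22 for Abca1 to 2.24 for Mvk, with r = −0.81 (rank coefficient −0.76). These are descriptions across genes of 1 library each, and genes are not independent replicates. Short members such as Mvk, Mvd, Pmvk and Fdps were relatively high in these libraries, and long members such as Abca1 and Npc1 low. Without these libraries Fdps was still higher in the hybrid, by 7.04 against 129 (edgeR, adjusted p = 0.000533) and by 5.01 against CAST (adjusted p = 0.0033), and Ggps1 was still called lower in the hybrid than in 129 (adjusted p = 0.000317) and in CAST than in 129 (adjusted p = 0.00222).

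**Figure D4:**
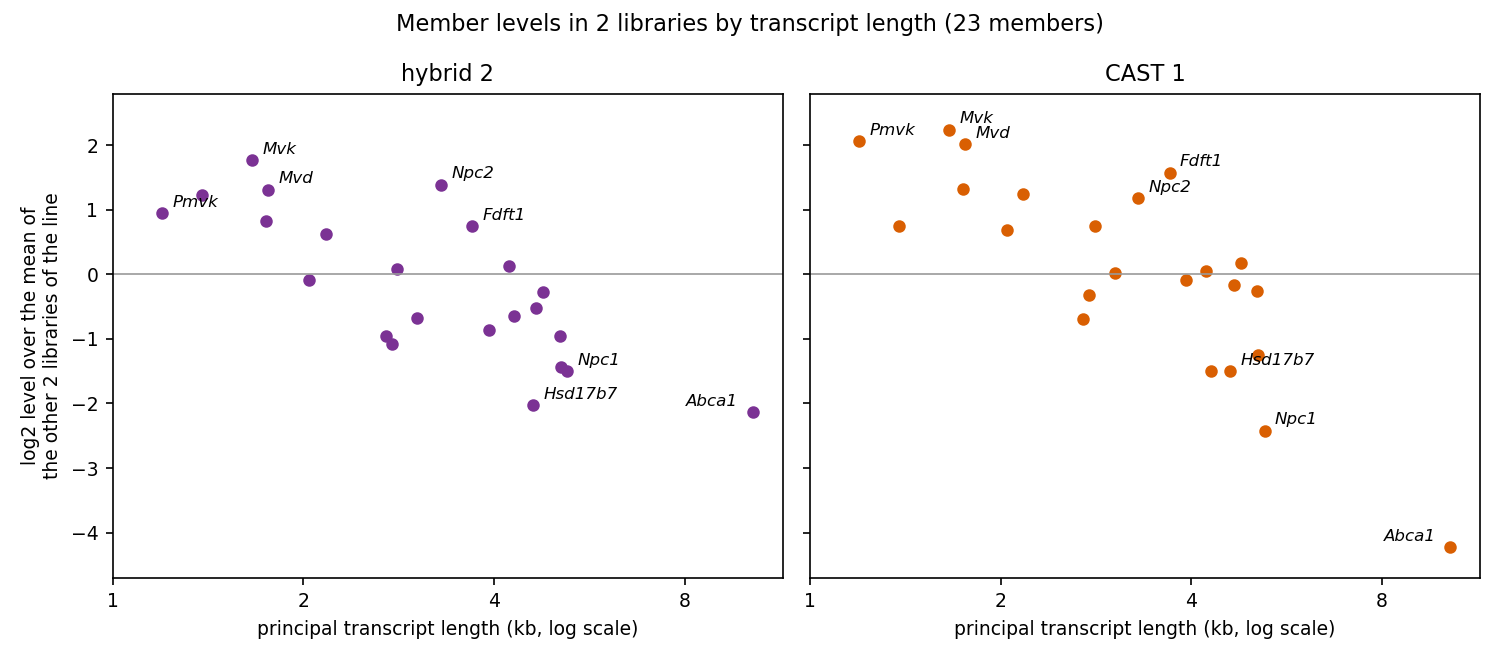
Level of 23 members in hybrid 2 (left) and CAST 1 (right), as log2 over the mean of the other 2 libraries of that line, against the length of the principal transcript in kilobases on a log scale. Points fall with length in both, from 1.77 (hybrid 2) and 2.24 (CAST 1) for Mvk to −2.13 and −4.22 for Abca1.

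Of 6 lists of genes around the pathway, 5 held no call by edgeR, and Tmem97 was called in the other. Over the 5 lists without a call (fatty acid synthesis, the isoprenoid branch, sterol transport and esterification, SREBP processing, and lipoprotein receptors), 52 of 54 listed genes were tested. These lists are grouped because none of their genes was called, so their joint count of 0 is no result of its own. An unadjusted p under 0.05 was found for 8 of the 52 in hybrid against 129, 4 in hybrid against CAST, 7 in CAST against 129 and 3 against the midparent, beside 22.2%, 15.8%, 14.6% and 18.4% of all genes. DESeq2 called 1 gene in hybrid against 129, Fntb, 1 in hybrid against CAST, Elovl6, 1 in CAST against 129, Acacb, and 0 against the midparent, and limma-voom called 0 in each. Fntb encodes a subunit of protein farnesyltransferase and had 39.6 to 74.3 CPM in the hybrid and 23.2 to 26.4 in 129 (log2 fold change 1.18, SE 0.37, adjusted p = 0.105 in edgeR).

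The genes with the highest mean RPKM over the 9 libraries in 4 of these lists follow, a rank that need not hold in each line. Scd2, a desaturase of fatty acids, had 1452, 214 and 808 CPM in hybrid libraries 1 to 3, 209, 1346 and 1436 in CAST libraries 1 to 3, and 1196, 896 and 1022 in 129 libraries 1 to 3, lowest in hybrid 2 and CAST 1. Fnta, the other subunit of farnesyltransferase, had 76.0 to 163 CPM in the hybrid, 78.8 to 239 in CAST and 90.9 to 91.7 in 129. Lamp2 of the lysosome had 211 to 706 CPM in the hybrid, 138 to 369 in CAST and 315 to 492 in 129. Snx17, which recycles lipoprotein receptors, had 102 to 219 CPM in the hybrid, 80.3 to 213 in CAST and 66.6 to 79.9 in 129, all hybrid and CAST libraries above all 129 libraries, at adjusted p = 0.217 in hybrid against 129 and 0.428 in CAST against 129.

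Among 5 other sterol genes tested, Tmem97, a membrane protein that binds Npc1, was called. It had 0 counts in all 3 hybrid libraries, 2.68, 0.62 and 0.43 CPM in CAST libraries 1 to 3, and 6.0, 5.49 and 4.25 CPM in 129 libraries 1 to 3. It was at least 62.3-fold lower in the hybrid than in 129 (edgeR, adjusted p = 0.00702) and at least 12.3-fold lower than in CAST (adjusted p = 0.0272). CAST and 129 did not overlap, and their difference did not pass (adjusted p = 0.269).

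Some markers of glia, which also make cholesterol, differed between lines. Astrocyte and radial glia markers (7 genes) summed to 822 to 1500 CPM in the hybrid, 504 to 1294 in CAST and 314 to 870 in 129. Of 6 tested, Gfap was called, higher than the midparent (edgeR, adjusted p = 0.0211), with 76.6, 305 and 162 CPM in hybrid libraries 1 to 3, 2.17, 23.1 and 14.4 in CAST libraries 1 to 3, and 27.0, 3.17 and 3.10 in 129 libraries 1 to 3. Fabp7 was higher than the midparent by 1.45 (adjusted p = 0.12 in edgeR, called in DESeq2). The other tested markers ran from −1.76 for Slc1a2 to 0.03 for Slc1a3 against the midparent, with Aqp4 at −1.30 and Aldh1l1 at −0.65, and the list's median was −0.31 (−0.02 over all genes). Gjb6 was at 0 counts in CAST. Of 7 tested markers of the oligodendrocyte lineage, Mog was called, with 5.59 to 22.5 CPM in the hybrid, 0 in CAST and 0 to 0.56 in 129 (hybrid against 129, adjusted p = 0.0337). DESeq2 did not call Mog in hybrid against 129 and called Mbp, whose log2 fold change was −2.20 (adjusted p = 0.0857 in edgeR). Of the 7, 5 had lower fitted levels in the hybrid than in 129, with a median of −1.44. The summed level of that list was 37.3 to 70.0 CPM in the hybrid, 8.78 to 29.9 in CAST and 61.7 to 133 in 129.

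Of 2 tested microglia markers, Cx3cr1 was called, with 19.1 to 35.3 CPM in the hybrid, 0 to 1.34 in CAST and 0 to 0.12 in 129 (hybrid against 129, adjusted p = 0.00409). Csf1r, the other tested, had 4.33 to 13.4 CPM in the hybrid, 5.16 to 18.1 in CAST and 2.61 to 7.07 in 129 (hybrid against 129, edgeR, adjusted p = 0.557). Of those not tested, Tyrobp reached at most 0.14 CPM in the hybrid, 0.52 in CAST and 0 in 129. Aif1 reached at most 0.35 CPM in the hybrid, 0.72 in CAST and 0.39 in 129, and Ptprc 2.51, 0.22 and 0.95 CPM in the same order. Neuron markers summed to 4619 to 12704 CPM in the hybrid, 5737 to 14667 in CAST and 4658 to 10784 in 129, and none of the 7 was called by edgeR or DESeq2 or had an unadjusted p under 0.05. Endothelial markers summed to 13.4 to 15.8 CPM in the hybrid, 8.88 to 27.3 in CAST and 25 to 46.9 in 129, with 0 of 4 called by edgeR (1 at an unadjusted p under 0.05 in hybrid against 129 and 1 in CAST against 129) and Cdh5 called by DESeq2 in hybrid against 129. The pluripotency markers summed to 0.78 to 3.07 CPM in the hybrid, 0.22 to 1.55 in CAST and 1.61 to 7.01 in 129, and the 1 tested, Zfp42, was called by DESeq2 in CAST against 129 but not by edgeR (adjusted p = 0.219). In bulk RNA, fewer cells of a type and less RNA per cell cannot be told apart, and the part of cell makeup in the member levels was not tested.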

How the data were processed

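Polyadenylated RNA of differentiated motor neurons was sequenced in 9 libraries, 3 from each of 3 lines, and 2 further CAST samples were not analysed here. The deposited matrix holds counts, whole numbers of reads per Ensembl gene, with no normalization by the authors that the values show. Reads were aligned with STAR to mm10, per the submitters' processing notes. Whether reads of the 3 lines aligned equally well to that reference was not tested, which bears on every contrast between lines. The sources used here give neither the STAR version nor the counting tool, its annotation or its strandedness.

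Genes were kept by filterByExpr (minimum count 10, minimum total count 15, minimum proportion 0.7), and TMM factors were computed. The quasi-likelihood test used edgeR 4.0.16 (robust option, R 4.3.3), and 1 fit held every line without covariates. P-values are two-sided and Benjamini-Hochberg adjusted over 14839 genes, with a threshold of 0.05. SE values come from the F statistic. The midparent weighs each parental line by 0.5. Symbols, coordinates, lengths of the longest principal transcript, and exon overlaps come from GENCODE M21 on GRCm38, which need not be the annotation used for counting. Similar copies were searched with blastn at a minimum of 95% identity over 200 bases. A fold against a line at 0 counts is a bound at 3 counts over that line, and for 1 to 3 counts a ratio with an exact 95% interval is given. Intervals and floors cover counting error only.

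The edgeR procedure was also run on simulated counts, drawn without any length trend of single libraries. That run therefore bears on no call given here. Alternatives were DESeq2 1.42.0, limma-voom (limma 3.58.1), RLE scaling, no filter, only the lines compared, a replicate block, a length offset, libraries left out and overlapping members left out. The members and lists were chosen with earlier results of these data known. Every library is given for members called in any comparison and for the member with the highest mean RPKM among the rest of each step, and for a few others chosen after their values were seen. From other lists, called genes are named, or the gene with the highest mean RPKM where none was called. A gene so chosen is not reported here.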

Additional observations from a re-analysis of the deposited data

How the results depend on the processing

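Fdps was called under every alternative run for the contrasts of the hybrid with 129, CAST and the midparent, and Ggps1 under every one in hybrid against 129. No called value changed sign. Over the other settings, 14 values of single members gained a call and 12 lost one, of 1607 compared, and 73 uncalled values in 17 genes changed sign. The causes of these changes were not tested. Where libraries were left out, the fits also held fewer samples.

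DESeq2 called 2100 genes in hybrid against 129 (1041 in edgeR), 1597 in hybrid against CAST (891), 939 in CAST against 129 (136), 1781 against the midparent (1089) and 2506 for any difference among the lines (1192). It called 5 members each in hybrid against 129, CAST against 129 and the joint test. For CAST against 129, limma-voom called 263 genes, the length offset 305 genes and 2 members, and the fit without CAST 1 and hybrid 2 230 genes. The length offset called 4 members in the joint test.

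Leaving out single libraries gave 522 to 1717 genes in hybrid against 129, 643 to 923 in hybrid against CAST, 26 to 157 in CAST against 129, 884 to 1850 against the midparent and 788 to 1485 jointly. The 522, 26 and 788 came without 129 2, and the 1717 and 1850 without CAST 1. The count for CAST against 129 was 26 to 61 without any of 129 1, 129 2, 129 3, CAST 2 or CAST 3, and that for hybrid against 129 was 564 and 673 without 129 3 and 129 1. Members called were 2 to 4, 1 to 2, 1 to 1, 2 to 3 and 2 to 3 in the same order. The median over members ran from −0.2834 to −0.0666 in hybrid against 129 and from −0.44 to −0.14 against the midparent, lowest without hybrid 3, which left −0.28 and −0.44. It ran from −0.41 to −0.30 in hybrid against CAST and from 0.07 to 0.33 in CAST against 129, lowest without CAST 1.

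In hybrid against CAST, 1 member was called without the filter and with only those lines fitted. Without members overlapping another gene by 10% or more (Fdps, Fdft1 and Scap), 1 member was called in hybrid against 129, in hybrid against CAST, against the midparent and jointly, and the medians were −0.46 in hybrid against 129, −0.44 against the midparent and 0.0049 in CAST against 129.

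Replicate numbers were not shown to pair libraries: 2 of 9 same-number pairs had a correlation over 0.1 (−0.72 to 0.49). With the replicate block, 561 genes were called in hybrid against 129, 526 in hybrid against CAST, 6 in CAST against 129 and 651 jointly, with 1 member in hybrid against CAST (Lss, adjusted p = 0.132, was lost) and 0 in CAST against 129 (Ggps1, adjusted p = 0.0556, was lost).

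Depth limits Ggps1 and Tmem97 in the hybrid to bounds. Groups of 3 libraries were too small for a test of single outlying libraries.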
